A study of Mus musculus with 2 samples.

Results

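The genes described here make cholesterol and fatty acids, and they were followed in mouse B cells that overexpressed the microRNA miR-181b. They were chosen by name: 35 genes were listed, and 34 of them were found among the 27962 gene names of the array, on 68 of its 41174 probes. Of these, 24 belong to the sterol branch and 10 to the fatty acid branch. The malic enzyme gene Me1 was not found by name. The array lists it under its older symbol Mod1, with a dim probe at a mean log2 ratio of -0.04 and another that was not well above background, and it is left out of all counts of ratios. The gene Sc4mol is now called Msmo1.

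Both RNAs came from primary B cells of C57/BL6 mouse spleens, isolated by removing cells that carry CD43. All cells were activated in culture with LPS (25 µg/ml) and IL-4 (10 ng/ml), a mixture that drives B cells to proliferate and to switch antibody class. They were exposed for 20 h to retrovirus with polybrene (8 µg/ml), an agent that helps virus enter cells, and carried either the control-GFP vector or the miR181b-GFP vector. Cells positive for GFP, the vector's fluorescent marker, were sorted 2 days after transduction. The labels state 1 biological replicate per vector, so 1 RNA of each kind was compared, on 2 arrays with the dyes exchanged. No age, and no number of mice behind each RNA, was stated in the labels. On array 1 the miR-181b RNA carried the red dye Cy5, and on array 2 the green dye Cy3.

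The arrays repeat the hybridisation of 1 pair of RNAs, so no test between the vectors is possible and no p-value is given. All ratios are log2 of miR-181b over control, so that a negative value is a lower level in the miR-181b RNA. An error written after ± is the distance of either array from the mean of both, and it covers the hybridisation and the dyes only. A gene counted as measured when each RNA gave a signal well above background on each array. That held for 17694 genes, with 64.7% to 67.7% of spots well above background in a channel. All 34 genes found by name were among them, and none of their probes was saturated. RNA integrity numbers were 9.7 to 9.8. RNA of the sorted GFP-positive cells was measured in bulk, so fewer cells with a transcript and less of it per cell cannot be told apart.

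Cholesterol is built from acetyl-CoA through mevalonate, squalene and lanosterol, and fatty acids are built from the same acetyl-CoA by a carboxylase, a synthase, elongases and desaturases. Most genes of the sterol branch are switched on together by the SREBP transcription factors. These are held in the endoplasmic reticulum by the protein Scap and its Insig anchors while sterols are plentiful, and they are released to the nucleus when sterols run short. They act together with the factors NF-Y and Sp1. Activated lymphocytes raise both routes to supply membrane for growth and division.

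The microRNA that separates the RNAs is printed because its seed, bases 2 to 8 in capitals, sets which transcripts it pairs with. The mature sequence, taken from the RefSeq annotation of build GRCm38.p6, is encoded at chr1:137966650-137966673 (plus strand, Mir181b-1) and at chr2:38853845-38853868 (plus strand, Mir181b-2).
mmu-miR-181b-5p: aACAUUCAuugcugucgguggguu
The letters that pair with the seed, TGAATGT, occurred in 1 of the 68 member probes, a probe of Hsd17b7. They occurred in 393 of all 41174 probes (0.954%). The probes are 60 bases long and cover only a fragment of each transcript, so this count is no search for target sites.

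The promoters of 4 sterol genes are printed because the members share a regulator and differ in their ratios. By their brightest probes, Hmgcs1, Idi1 and Msmo1 were lower on both arrays, while Insig1 had opposite signs on the arrays. Each sequence holds the 250 bases before the transcription start in the RefSeq annotation of GRCm38.p6. The positions are chr13:119690101-119690350 (plus strand) for Hmgcs1, chr13:8885356-8885605 (plus strand) for Idi1, chr8:64733579-64733828 (minus strand) for Msmo1 and chr5:28071162-28071411 (plus strand) for Insig1. Capitals mark the core of a sterol response element, TCACNCCAC, the NF-Y letters CCAAT and the Sp1 letters GGGCGG, each also on the other strand, where NF-Y reads ATTGG and Sp1 reads CCGCCC. No matches overlap in these 4 sequences.
Hmgcs1: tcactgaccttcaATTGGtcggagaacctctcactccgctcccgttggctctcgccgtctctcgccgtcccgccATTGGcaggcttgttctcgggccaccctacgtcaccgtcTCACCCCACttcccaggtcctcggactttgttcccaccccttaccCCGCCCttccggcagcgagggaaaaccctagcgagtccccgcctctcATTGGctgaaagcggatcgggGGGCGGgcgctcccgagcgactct
Idi1: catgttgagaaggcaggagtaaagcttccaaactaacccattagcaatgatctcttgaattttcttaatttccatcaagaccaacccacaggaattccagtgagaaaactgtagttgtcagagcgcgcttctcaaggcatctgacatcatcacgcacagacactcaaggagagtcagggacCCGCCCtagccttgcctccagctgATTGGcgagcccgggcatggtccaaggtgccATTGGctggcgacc
Msmo1: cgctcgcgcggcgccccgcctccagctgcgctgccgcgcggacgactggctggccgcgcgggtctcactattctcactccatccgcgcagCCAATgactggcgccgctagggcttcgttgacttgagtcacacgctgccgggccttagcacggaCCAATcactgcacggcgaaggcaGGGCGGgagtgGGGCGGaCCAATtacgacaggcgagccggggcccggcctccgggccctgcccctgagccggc
Insig1: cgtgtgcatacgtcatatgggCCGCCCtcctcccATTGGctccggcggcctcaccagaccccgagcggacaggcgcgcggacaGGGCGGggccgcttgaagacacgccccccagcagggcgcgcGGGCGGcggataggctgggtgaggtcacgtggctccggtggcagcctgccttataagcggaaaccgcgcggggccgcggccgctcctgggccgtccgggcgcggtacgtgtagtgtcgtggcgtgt
The sterol response core lay 137 to 129 bases before the start of Hmgcs1. It matched in 1 of 20 sterol genes with a promoter entry and in 0 of 8 fatty acid genes, Me1 included, against 1.22% of 27025 genes with an entry. CCAAT on either strand was found in 18 of the 20 sterol promoters (90.0%) and in 4 of the 8 fatty acid promoters (50.0%), against 37.5% of all. GGGCGG was found in 19 of the 20 (95.0%) and in 4 of the 8 (50.0%), against 35.4% of all. Me1 was among the 4 fatty acid matches in both cases. A match is a stretch of letters and was not tested as a binding site. Sqle, Fdft1, Fdps, Stard4, Fads1, Scd1 and Scd2 have no entry.

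The sterol branch was lower in the miR-181b RNA. Its 24 genes had a median log2 ratio of -0.27, with -0.33 on array 1 and -0.36 on array 2, against a median of -0.01 over all measured genes. Of the 24, 16 (66.7%) were lower on both arrays, where 27.4% of all measured genes were. Mvk was higher on both, where 24.4% of all genes were, and 7 had opposite signs. By a stricter rule, a mean of at least 1.5-fold and an equal sign on the arrays, Hmgcs1, Sc4mol and Stard4 were lower, which is 3 of 24 against 0.509% of all genes. None was higher by that measure, against 0.814% of all genes. The fatty acid branch was mixed: its 10 genes had a median of -0.08, with -0.13 and -0.05 on the arrays. In it 5 genes (50.0%) were lower on both arrays, Fads1 was higher on both and 4 had opposite signs. None of the 10 reached 1.5-fold.

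**Figure D1:**
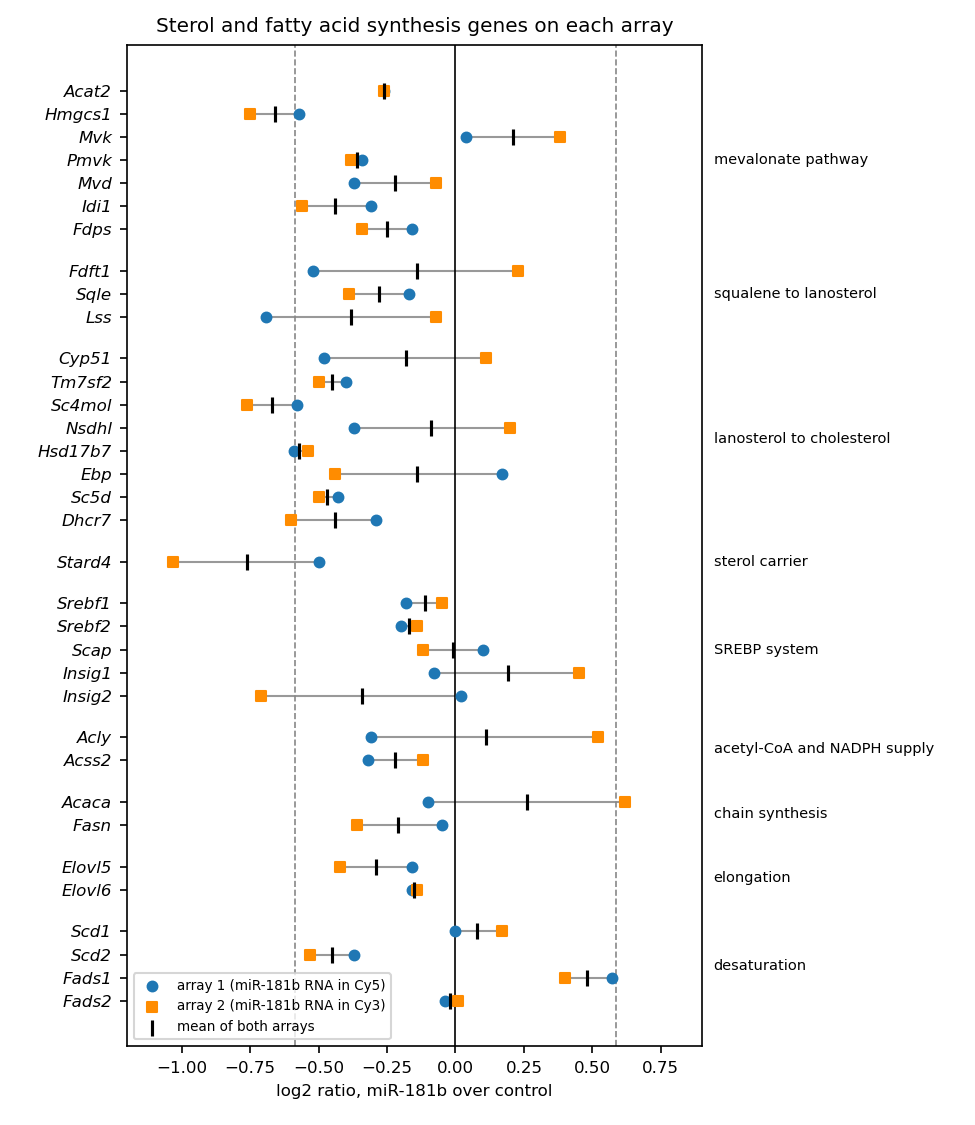
Log2 ratio of miR-181b over control (x axis) of 34 genes (y axis), grouped by role, on array 1 (circles) and array 2 (squares), with their mean (bar). Dashed lines mark 1.5-fold. Of the sterol genes, 20 lie below 0 on array 1 and 19 on array 2, and of the fatty acid genes 9 and 5. Of all measured genes, 48.6% lie below 0 on array 1 and 54.4% on array 2.

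The mevalonate segment, which turns acetyl-CoA into the isoprene units of cholesterol, had a median of -0.26. Of its 7 genes, 6 (85.7%) were lower on both arrays, against 27.4% of all measured genes. Hmgcs1 encodes the synthase that makes HMG-CoA, an early intermediate of the route. Its brightest probe had normalised log2 intensities of 14.72 in the control RNA and 14.15 in the miR-181b RNA on array 1, and of 14.77 and 14.03 on array 2. The miR-181b RNA was lower on each array. The mean ratio was -0.66 ± 0.09, or 1.58-fold lower. Other probes of Hmgcs1 gave means of -0.48 and -0.19, and the last of these had opposite signs on the arrays.

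Idi1, the isomerase that prepares isoprene units for joining, read 13.92 in control and 13.61 in miR-181b RNA on array 1, and 13.98 and 13.42 on array 2. Its mean was -0.44 ± 0.12, and a further probe gave -0.45. The phosphomevalonate kinase gene Pmvk was at -0.36 ± 0.02 and its other probe at -0.38. Both genes were thus lower on each array with each of their probes. Acat2, the thiolase that starts the route, had -0.26 on each array. Fdps, which makes farnesyl diphosphate, was at -0.25 ± 0.09 with a further probe at -0.38. The decarboxylase gene Mvd was at -0.37 on array 1 and -0.07 on array 2.

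Mvk, mevalonate kinase, was the exception in this segment. It read 10.50 in control and 10.54 in miR-181b RNA on array 1, and 10.24 and 10.62 on array 2, so the RNAs were close on array 1 and apart on array 2. The mean was 0.21 ± 0.17. A further probe had -0.30 and 0.38. With each array centred on its median in place of loess, the main probe turned to -0.10.

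In the segment from squalene to lanosterol, the median of the 3 genes was -0.28. Sqle and Lss (66.7% of the 3) were lower on both arrays, against 27.4% of all measured genes. Sqle, the epoxidase that takes squalene towards the ring closure, was at -0.17 and -0.39, with a mean of -0.28 ± 0.11. Lss, which closes the sterol ring, was at -0.69 on array 1 and -0.07 on array 2 with its brightest probe. Its other probes had means of -0.86 and -0.25, and all 3 probes were lower on both arrays. Fdft1, squalene synthase, had -0.52 on array 1 and 0.23 on array 2. Its distance of 0.38 from the mean of -0.14 was the largest among the sterol genes.

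The segment from lanosterol to cholesterol had a median of -0.45. Of its 8 genes, 5 (62.5%) were lower on both arrays, against 27.4% of all measured genes. Sc4mol encodes an oxygenase that acts in the removal of methyl groups from the sterol. Its single probe read 15.24 in control and 14.66 in miR-181b RNA on array 1, and 15.26 and 14.50 on array 2. The miR-181b RNA was lower on each array, and the mean ratio was -0.67 ± 0.09, or 1.59-fold lower. Hsd17b7, a keto-sterol reductase of the same demethylation complex, read 11.56 and 10.97 on array 1 and 11.59 and 11.05 on array 2. Its mean of -0.57 ± 0.03 (1.48-fold lower) lay just outside the threshold of 1.5-fold, and its other probe was at -0.43.

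The other genes of the segment that were lower on both arrays were Sc5d, Tm7sf2 and Dhcr7. Sc5d, a sterol desaturase, was at -0.47 ± 0.03 with its other probe at -0.36. Tm7sf2, a sterol reductase, had -0.40 and -0.50. Dhcr7, the reductase that releases cholesterol from dehydrocholesterol, was at -0.29 and -0.60 with its brightest probe. Its other probe had -0.32 and 0.53, so Dhcr7 was below 0 with both probes on array 1 only.

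The remaining genes of the segment had opposite signs on the arrays with their brightest probes. Cyp51, the demethylase that acts on lanosterol, was at -0.48 and 0.11, and its other probes had means of -0.51 and -0.16. The probe at -0.51 was lower on both arrays, with -0.41 and -0.61. Nsdhl, a dehydrogenase of the demethylation complex, was at -0.37 and 0.20, while its other 3 probes were lower on both arrays with means of -0.34, -0.19 and -0.10. Ebp, a sterol isomerase, ran the other way, with 0.17 on array 1 and -0.44 on array 2. The mean of Ebp was -0.14 ± 0.30, so its arrays lay farther apart than the mean lay from 0.

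Stard4, a carrier that moves cholesterol between membranes, had the lowest mean of the 34 genes. It read 11.69 in control and 11.20 in miR-181b RNA on array 1, and 11.99 and 10.96 on array 2. Its mean was -0.76 ± 0.27, or 1.70-fold lower. The miR-181b RNA was lower on each array with each of its 3 probes, and the other probes were at -0.56 and -0.55.

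The SREBP system, which senses sterol and drives these genes, differed less. Its 5 genes had a median of -0.11, against -0.36 for the 19 enzyme and carrier genes of the branch. The transcription factor genes Srebf1 and Srebf2 were lower on both arrays, by little: Srebf1 was at -0.11 ± 0.07 and Srebf2 at -0.17 ± 0.03. The other 3 probes of Srebf2 had means between -0.07 and 0.03. Scap, the escort that carries the factors to the Golgi, had 0.10 and -0.12.

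The anchors Insig1 and Insig2, which retain Scap when sterols are plentiful, had opposite signs on the arrays with their brightest probes. Insig1 is itself a target of SREBP in many cells. It read 10.49 in control and 10.40 in miR-181b RNA on array 1, and 10.44 and 10.89 on array 2, with ratios of -0.08 and 0.45. Its other probe had 0.01 and 0.21, with a mean of 0.11, so that probe was higher on both arrays. With median centring the brightest probe of Insig1 was at -0.13. Insig2 read 10.96 and 10.98 on array 1, and 11.37 and 10.66 on array 2, with ratios of 0.02 and -0.71. With the brightest probes, the RNAs were therefore nearly level on array 1 and apart on array 2 for both anchors, in opposite directions. The other measured probe of Insig2 did not repeat this pattern. It had -0.39 on array 1 and -0.14 on array 2, and so was lower on both.

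In the fatty acid branch, the genes that supply and build the chain showed no common direction. Acly, which makes acetyl-CoA from citrate, had -0.31 on array 1 and 0.52 on array 2, the widest gap of the 34 genes. Acss2, which makes acetyl-CoA from acetate, was at -0.22 ± 0.10, and its other measured probes were at -0.15 and -0.07. Acaca, the carboxylase that commits acetyl-CoA to fatty acids, had -0.10 and 0.62, and its other measured probes were at -0.04 and 0.07. Fasn, the synthase that assembles the chain, read 14.73 in control and 14.68 in miR-181b RNA on array 1, and 14.87 and 14.51 on array 2. Its mean was -0.21 ± 0.15, and the RNAs were nearly level on array 1.

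The elongase genes Elovl5 and Elovl6, whose products lengthen fatty acids, were lower on both arrays. Elovl5 was at -0.29 ± 0.13 with another probe at -0.03, and Elovl6 at -0.15 ± 0.01. The gap between the probes of Elovl5 was thus about as large as its ratio.

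The desaturase genes, whose products place double bonds in fatty acids, held both the lowest and the highest mean of the branch. Scd2 read 15.36 in control and 14.99 in miR-181b RNA on array 1, and 15.39 and 14.87 on array 2, with a mean of -0.45 ± 0.08. Fads1, a desaturase of long polyunsaturated chains, read 12.01 and 12.57 on array 1, and 11.93 and 12.33 on array 2. Each of these genes kept its direction on both arrays, and Fads1 was 1.40-fold higher in the miR-181b RNA, with a mean of 0.48 ± 0.08. With median centring in place of loess its mean was 0.12, and no gene of the branch was then higher on both arrays. Scd1 was at 0.08 ± 0.09 and Fads2 at -0.02 ± 0.03, both within their spread of 0. Whether probes of Scd1 and Scd2 also bind RNA of the related copies was not tested.

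These desaturase genes form 2 clusters on chromosome 19. In the RefSeq annotation Fads3, Fads2 and Fads1 follow each other with 0 protein-coding genes between them, as do Scd3, Scd2, Scd4 and Scd1. Fads3, which is not a member and was looked at after its values were seen, was at 0.44 ± 0.15, close to Fads1 at 0.48, while Fads2 between them was at -0.02. Scd3, also looked at afterwards, was at 0.05 ± 0.01. Neighbours in both clusters therefore had unlike ratios.

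**Figure D2:**
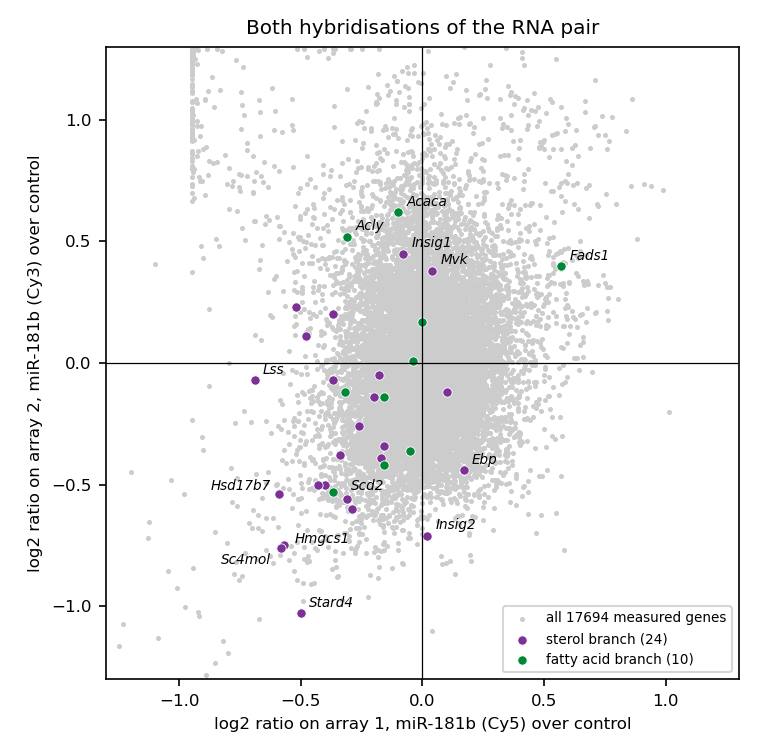
Log2 ratio of miR-181b over control on array 1 (x axis) against array 2 (y axis) for all 17694 measured genes (grey), the 24 sterol genes (purple) and the 10 fatty acid genes (green), with 33 genes outside the plotted range of 1.3 either side of 0. Stard4, Hmgcs1, Sc4mol, Hsd17b7 and Scd2 lie at lower left and Fads1 at upper right.

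Over all genes the ratios hardly repeated between the arrays, which limits what the ratio of a single gene can show as well as any ranking. Across all measured genes, Pearson's r between the arrays was 0.029 and Spearman's rho 0.088, and 8516 of the 17694 genes had opposite signs. Across the 24 sterol genes r and rho were 0.23 and 0.26, and across the 10 fatty acid genes 0.37 and 0.406. These are descriptions across genes, which share the slide, the RNAs and the dyes and are not independent. As a yardstick chosen after the values were seen, the scanner software's own error of a ratio was 0.20 to 0.23 for the sterol genes and 0.20 to 0.21 for the fatty acid genes, on the log2 scale. By the scanner's own ratio, 11 of the 24 sterol genes (45.8%) were lower by more than that error on both arrays, against 5.76% of all genes. They were Acat2, Hmgcs1, Pmvk, Idi1, Sqle, Tm7sf2, Sc4mol, Hsd17b7, Sc5d, Dhcr7 and Stard4. None of the 24 was higher by that measure, against 5.24% of all genes. In the fatty acid branch Scd2 was lower and Fads1 higher by it.

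Different probes of a gene are separate readings of its transcript on the same arrays. Of 47 measured probes of the sterol genes, 32 (68.1%) were lower on both arrays, against 26.2% of all 25787 measured probes. For the fatty acid genes it was 9 of 16 (56.2%). Among the 15 sterol genes with more than 1 measured probe, 11 had every probe mean below 0, Mvk and Insig1 had every mean above 0, and Dhcr7 and Srebf2 had means of both signs. In 7 of the 15, every probe was lower on both arrays. Among the 4 such fatty acid genes, Acss2, Fasn and Elovl5 had every mean below 0 and Acaca had both signs. The same shares were not counted over all genes with several measured probes. These counts of genes therefore describe the members only and do not set them apart from other genes. Probes of a member gene were closer on array 1 than on array 2, with a median range of 0.12 and 0.37. Over the 5692 genes of the array with several measured probes the ranges were 0.14 and 0.27.

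**Figure D3:**
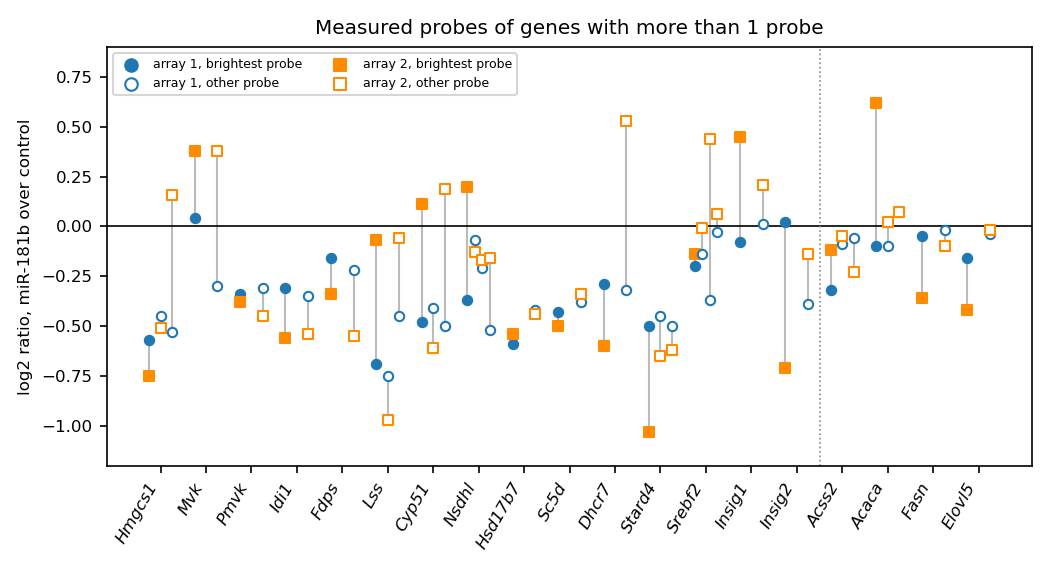
Log2 ratio of miR-181b over control (y axis) of each measured probe of the 19 genes with more than 1 (x axis), on array 1 (circles) and array 2 (squares). Filled symbols mark the brightest probe, a line joins a probe's arrays, and the dotted line separates the 15 sterol genes from the 4 fatty acid genes. All probes of Pmvk, Idi1, Fdps, Lss, Hsd17b7, Sc5d and Stard4 lie below 0 on both arrays.

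The sterol probes were bright, with a median log2 intensity of 12.78 over genes against 9.41 over all genes, and the fatty acid median was 11.75. Among the 7689 genes with an intensity of at least 10, the median ratio was 0 and 26.5% were lower on both arrays. Among the 2185 genes of at least 13, the median was 0.01 and 22.1% were lower on both arrays. Loess centres the ratios at every intensity, so these medians lie near 0 by construction, and the part of intensity in the members' ratios was not tested. Before loess the median log2 ratio of Cy5 over Cy3 was 0.985 on array 1 and 0.438 on array 2.

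All 6 B cell markers were well above background, with raw signals summed over them of 196595 to 288023 per RNA and array. Their median ratio was -0.30 on array 1 and 0.75 on array 2, with opposite signs when the dyes were exchanged. Its part in the members' ratios was not tested. The measured markers of T cells, macrophages, dendritic cells, natural killer cells, granulocytes and erythroid cells summed to between 137 and 4063. Cd8a, Clec9a, Siglech, Ncr1, Eomes, S100a8 and Alas2 were among those that did not pass the background filter. Mean ratios of the measured markers of these other cells lay between -0.26 and 0.39, and their part in the results was not tested.

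Among 26 measured further genes of sterol synthesis, uptake and regulation, the median was -0.01. Of the 26, 6 (23.1%) were lower on both arrays, against 27.4% of all measured genes. Another 6 (23.1%) were higher on both, against 24.4%. At 1.5-fold there were 0, where 0.509% of all genes were lower and 0.814% higher.

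Among 31 measured further genes of fatty acid and glyceride synthesis, the median was -0.05. Of the 31, 13 (41.9%) were lower on both arrays and 4 (12.9%) higher on both. Over all measured genes 27.4% were lower on both, 24.4% higher on both and 0.509% at least 1.5-fold lower. Dgat2, which makes triglyceride, was the only gene of that list past 1.5-fold, at -0.69 ± 0.16, and its other probes were at -0.26 and -0.11.

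The choice of normalisation moved the sizes more than the order of the branches. With each array centred on its median in place of loess, the sterol median was -0.66 and the fatty acid median -0.38, while the median of all genes was -0.20. Relative to all genes, the branches were then at -0.46 and -0.17. Median centring does not remove a trend of the ratio with intensity. The median log2 intensity was 12.78 for the sterol genes, 11.75 for the fatty acid genes and 9.41 for all genes. With median centring no comparison with equally bright genes was made, and the part of intensity in these values was not tested. With median centring 15 sterol genes were at least 1.5-fold lower, against 5.18% of all genes. The sterol median stayed below the fatty acid median in all 11 alternatives run, though not all of these could move the members, as the last section sets out.

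**Figure D4:**
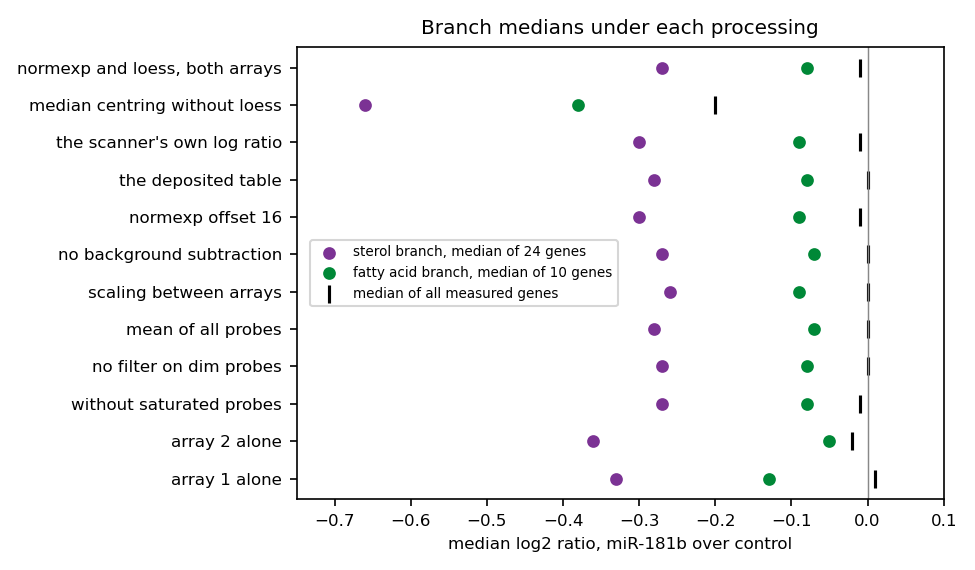
Median log2 ratio of miR-181b over control (x axis) of the 24 sterol genes (purple), the 10 fatty acid genes (green) and all measured genes (black bar) under 12 ways of processing (y axis). The sterol median is the lowest of the 3 in each, from -0.66 with median centring to -0.26 with scaling between arrays.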

How the data were processed

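RNA of GFP-positive mouse B cells with a control or a miR-181b vector was compared on 2 two-colour Agilent arrays of 1 slide with exchanged dyes, counted as 1 replicate. Scanner files came from Agilent Feature Extraction 9.1.3.1, per the file headers. The deposited intensity columns give the mean signal and median local background of each spot on a linear scale, with flags for saturation and outliers. The log10 ratio that the authors deposited divides Cy5 by Cy3, after the software had removed background and a dye trend. Its error and p-value are the software's own estimates for single arrays, as the deposited headers say, and the p-value was not used. A value table of log2 ratios was deposited as well. All 40901 probes with 1 spot matched the scanner's ratio within 0.001 after constants of 0.0011 and 0.0327 were added and the sign of array 2 was turned, which settled its scale, centring and direction. Its column medians were -0.0626 and -0.0704, and its own row identifiers were not used. It is not independent of the scanner's ratio.

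Here, background was corrected in R 4.3.3 with limma 3.58.1 by normexp with an offset of 50, and loess was then run within arrays, giving control and outlier spots a weight of 0 (7 and 21 outliers were left out). Each array had 43379 spots that were not controls. Spots of a probe were averaged. A gene was measured when a probe was well above background in each channel of each array, and its brightest such probe was used. The sign of array 2 was turned. The number of arrays limits the precision. Every member was named. Of the other pathway genes, those past 1.5-fold (0.585 on the log2 scale) were named. A few others were set by name, and their results are not reported here. The members and lists were chosen with earlier results of these data known. Promoters and the microRNA were read from RefSeq tables of GRCm38.p6, with 28 of 35 members matched. The steps were tested on simulated arrays whose planted changes were larger than the mean ratio of any member. Whether changes as small as those of the members are recovered was therefore not tested. Alternatives to loess, background correction, probe choice, filters and single arrays were tried.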

Additional observations from a re-analysis of the deposited data

How the results depend on the processing

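Both branch medians stayed below 0 in all 11 alternatives, but not all of these could have changed that. Leaving out saturated probes, or the filter on dim probes, kept the medians at -0.27 and -0.08. No member probe was saturated, and all 34 genes had passed the filter. Scaling cannot turn a sign on an array, and the deposited table is the scanner's ratio with a constant added per array. The sterol median was -0.30 with the scanner's own ratio, -0.30 with a normexp offset of 16 and -0.66 with median centring, and -0.36 to -0.33 on single arrays. The count of sterol genes at least 1.5-fold lower was 15 with median centring, against 5.18% of all genes. It was 2 on array 1 alone, against 1.58% of all genes, and 5 on array 2 alone, against 1.47%. In the main setting 0.509% of all genes were. The fatty acid median was -0.38 with median centring, where 3 of the 10 genes were at least 1.5-fold lower, against 5.18% of all genes. On array 2 alone 5 of the 10 fatty acid genes (50.0%) were below 0, against 54.4% of all genes, and on array 1 alone 9 were, against 48.6%. Only 1, Scd2, was lower beyond the software's error on both arrays, a yardstick added after the data were seen. With median centring Mvk turned to -0.10, Insig1 to -0.13, Acly to -0.23 and Scd1 to -0.33, and Fads1 was at 0.12. That setting moved 23 of the 34 member ratios by more than the distance between arrays and kept the sign of 30. Averaging all probes moved 5 and kept the sign of all 34. The causes were not tested. Limits are the 1 pair of RNAs, the 2 arrays, and the lack of any measure of spread between cultures. No paired analysis was possible because both arrays hold the same pair of RNAs in 1 group.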
